A study of Homo sapiens with 12 samples.

Results

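The heterogeneous nuclear ribonucleoproteins (HNRNP genes) and the serine/arginine-rich splicing factors (SRSF genes) were described in U2OS, an osteosarcoma cell line of human origin with wild-type p53. Members were all genes whose symbol in the array's probe annotation begins with HNRNP or SRSF, or with the older HNRP or SFRS, with 3 pseudogenes left out. This gave 39 symbols, of which 30 had a probe set assigned to that gene alone, and 29 of these passed the filter on dim probe sets, among 13673 genes tested. The 29 were 28 protein-coding genes and HNRNPD-DT, a non-coding transcript named for its place beside HNRNPD. SRSF12 lay under the filter. SRSF2, SRSF9, HNRNPH2, HNRNPA1L2, HNRNPCL1, HNRNPCL2, HNRNPCL3, HNRNPCL4 and HNRNPUL2-BSCL2 had only probe sets shared with another gene.

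The 12 arrays fell into 4 groups of 3. One group received doxorubicin, which poisons topoisomerase II and breaks DNA, at 0.6 µg/ml for 24 hours, and its control was untreated cells. Another received nutlin-3, an inhibitor that keeps MDM2 from p53, at 10 µM for 24 hours, and its control was cells kept in 0.1% DMSO for 24 hours. All groups shared the same line. No label tells if the 3 arrays of a group came from cultures grown apart, so each p-value reflects array-to-array spread that may be technical. In bulk RNA, fewer cells of a type and less RNA per cell cannot be told apart.

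HNRNP proteins coat nascent transcripts and often repress the use of nearby splice sites, while SR proteins bind exons through RNA recognition motifs and recruit the spliceosome through a domain rich in arginine and serine. That domain is phosphorylated by SRPK and CLK kinases, and the importin TNPO3 carries SR proteins into the nucleus. Several genes of both families limit their own mRNA through exons that carry a stop codon and send the transcript to nonsense-mediated decay.

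Values are MAS5 signals on a linear scale, and changes are log2 differences of group means of log2(signal + 16), each with its standard error (SE). A gene was called when its limma p-value, adjusted over all genes tested, lay under 0.05. The p53 target CDKN1A, a cell cycle inhibitor, read 6882, 8951 and 7200 on the doxorubicin arrays, against 1352, 1399 and 1333 on the untreated arrays, and 7361, 7143 and 7906 on the nutlin-3 arrays, against 1292, 1603 and 1627 in DMSO. Array signals shared a trimmed mean of 500.1, and within-group correlations lay between 0.9798 and 0.9905. The osteoblast markers RUNX2, COL1A1 and SPARC passed the filter, while ALPL, COL1A2, IBSP and SP7 did not. RUNX2 fell by 0.75 with doxorubicin and 0.38 with nutlin-3, COL1A1 rose by 0.26 with doxorubicin, and SPARC was called with neither agent. The sum of these 7 markers lay between 55877 and 62261 with doxorubicin, against 48350 to 55480 in untreated cells. With nutlin-3 that sum lay between 53431 and 57958, against 49565 to 57082 in DMSO. The summed level of 5 leukocyte markers, of which 3 passed the filter, lay between 694 and 1030 with doxorubicin, against 258 to 320 in untreated cells, and between 606 and 790 with nutlin-3, against 228 to 345 in DMSO, with PTPRC and CD14 under the filter. That of 4 epithelial markers lay between 8869 and 10209 with doxorubicin, against 9627 to 10863 in untreated cells, and between 8769 and 9022 with nutlin-3, against 7694 to 8053 in DMSO. For 4 endothelial markers, of which 1 passed the filter, it lay between 275 and 330 with doxorubicin, against 238 to 284 in untreated cells. With nutlin-3 it lay between 163 and 210, against 132 to 180 in DMSO. Of the leukocyte markers, LAPTM5 rose by 2.35 with doxorubicin and 1.84 with nutlin-3, and ITGB2 by 1.03 and 1.31. CD3E was called with neither agent. Of the epithelial markers, KRT8 held most of the sum, averaging 8175 with doxorubicin, 8277 in untreated cells, 8080 with nutlin-3 and 6717 in DMSO. KRT8 rose by 0.27 with nutlin-3, while EPCAM fell by 0.31 with doxorubicin and 0.68 with nutlin-3. KRT14 fell by 1.66 with doxorubicin, and CDH1 was called with neither agent. The part of these markers in the results was not tested.

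Most splicing factor genes were lower after doxorubicin. Of the 29 genes, 21 fell and 4 rose, while of all genes tested 25.6% fell and 30.1% rose, 55.7% in all. The median change of the 29 was -0.43 on the log2 scale, against 0.08 over all genes tested. Among protein-coding HNRNP genes 15 of 19 fell and 1 rose, with a median of -0.50, and among SRSF genes 6 of 9 fell and 2 rose, with a median of -0.29. The falls were moderate: 1 gene fell at least 2-fold, as 6.47% of all genes did, and 2 rose at least 2-fold, as 10% of all genes did. HNRNPLL, HNRNPA1, SRSF11 and HNRNPU did not pass the test.

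The 3 doxorubicin arrays and the 3 untreated arrays did not overlap for 21 members with lower signal, against 26.5% of all genes, nor for 4 with higher signal, against 32.4%. HNRNPA1 and HNRNPU were among these without a call, while HNRNPA3 and HNRNPH3 were called although their arrays overlapped. Among the 5494 genes whose mean signal exceeded that of the dimmest protein-coding member tested, 35.7% fell. Centring the arrays on their own medians put the median of all genes at -0.10. It gave 24 members lower and 2 higher, against 32.1% and 20.0% of all genes. Of the calls over all genes 38.4% were then rises, against 54% without centring. The 3' to 5' signal ratio of the ACTB control probe sets, a common measure of RNA and labelling quality, was 2.48, 3.29 and 3.59 on the doxorubicin arrays, against 1.44, 1.57 and 1.58 on the untreated arrays (exact two-sided permutation test, p = 0.1, the smallest that 3 against 3 arrays allow). The GAPDH ratio averaged 1.07 ± 0.116 on doxorubicin arrays, against 1.02 ± 0.0356 on untreated arrays (SD, n = 3 each, exact permutation p = 0.6). The ratio of the bacterial dap control averaged 7.67 ± 3.85 on doxorubicin arrays, against 2.84 ± 0.401 on untreated arrays (SD, n = 3 each, exact permutation p = 0.1). The part of these ratios in the falls was not tested. An alternative chosen after seeing the data kept only the first doxorubicin array, whose ACTB ratio was the lowest of its group but above every untreated array, and assumed that this lone array varies like the other groups. In it the falls of HNRNPA3 and HNRNPUL1 and the rises of HNRNPAB and SRSF5 were no longer called.

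**Figure D1:**
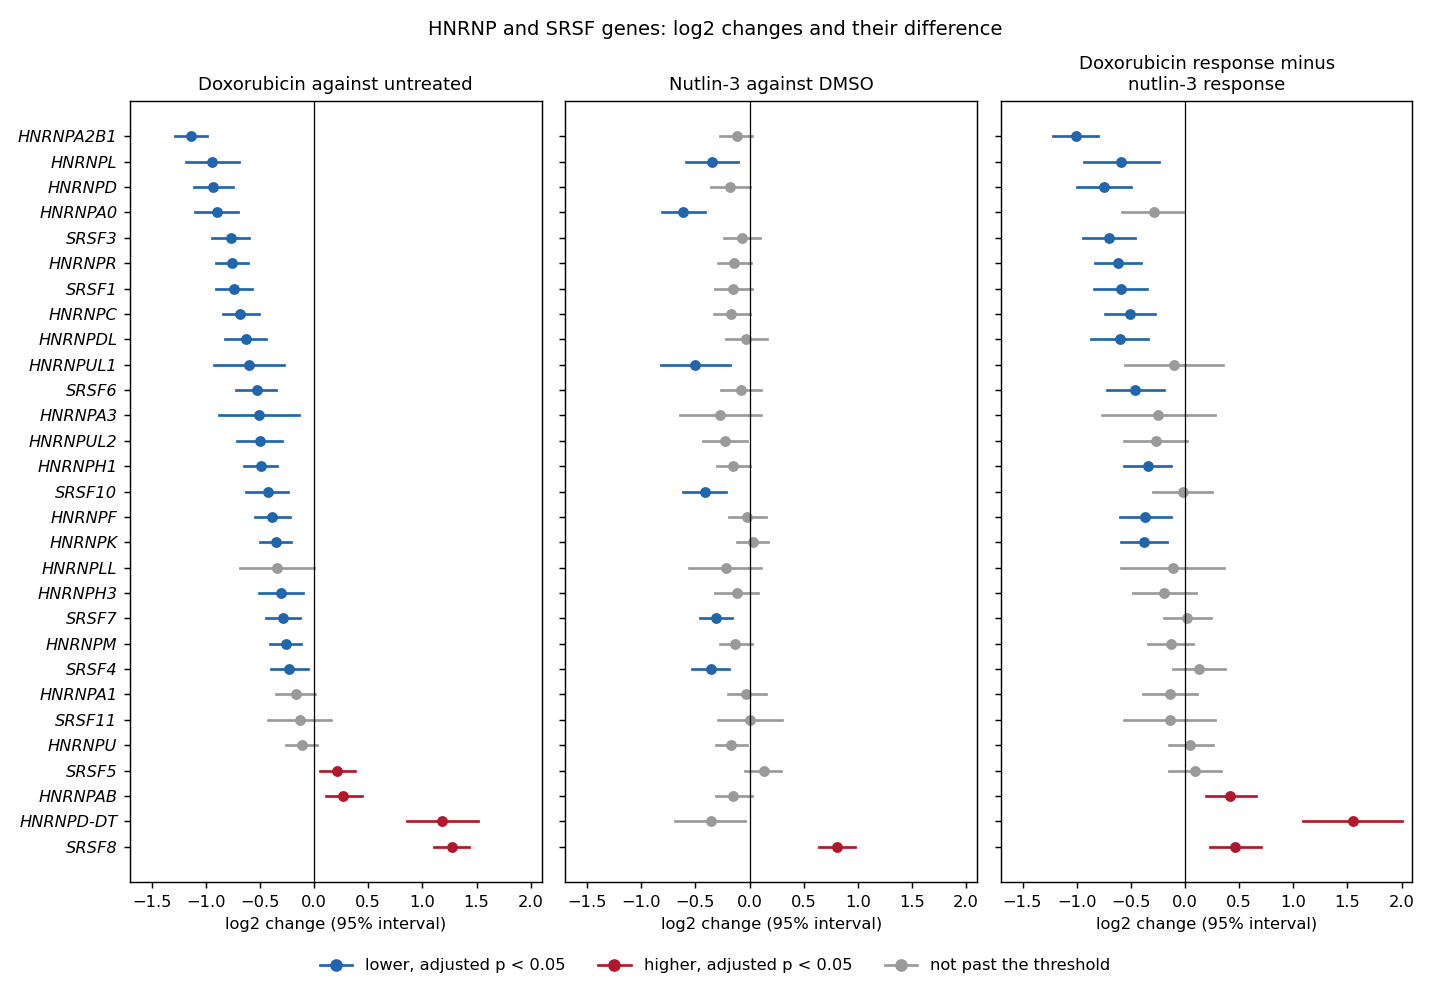
Log2 change (x axis) of the 29 HNRNP and SRSF genes (y axis, ordered by the doxorubicin change) with doxorubicin against untreated cells, with nutlin-3 against DMSO, and the difference of these responses; points are estimates, lines 95% intervals, and colours the limma call. Of the 29 genes, 21 fell and 4 rose with doxorubicin, 6 fell and 1 rose with nutlin-3, and 12 differences were negative and 3 positive past the threshold.

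The A/B and D group holds abundant RNA-binding proteins that act in splicing, transport and mRNA stability, and 5 of its 7 genes tested fell. HNRNPA2B1, which binds and sorts many RNAs, read 10812, 11180 and 11746 with doxorubicin, against 24103, 24936 and 25134 in untreated cells. All 3 doxorubicin arrays lay below every untreated array, and the change was -1.14 (SE 0.07, limma adjusted p = 6.8e-10). This value rests on the brightest probe set: of the other probe sets of HNRNPA2B1 that passed the filter, one rose by 0.29 (limma adjusted p = 0.024) and one stood at 0.03 (adjusted p = 0.8), so the gene's direction with doxorubicin depends on the probe set.

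HNRNPD, also known as AUF1, binds AU-rich elements and controls the decay of mRNAs that carry them. It read 8341, 7319 and 8526 with doxorubicin, against 15021, 15024 and 16033 in untreated cells, with no overlap, a change of -0.93 (SE 0.08, limma adjusted p = 7.3e-08). Of its 7 probe sets tested, 5 fell and the changes ran from -1.45 to -0.03. HNRNPA0, another binder of AU-rich elements, read 3287, 3242 and 3341 with doxorubicin, against 5187, 6400 and 7082 in untreated cells. The doxorubicin arrays were close to each other and below all untreated arrays, and the change was -0.90 (SE 0.09, limma adjusted p = 4e-07).

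HNRNPDL, a relative of HNRNPD, gave -0.63 on the brightest probe set and -1.89 on the one that fell furthest, with 5 of 6 probe sets called lower. HNRNPA3 fell by 0.51 (SE 0.18, limma adjusted p = 0.021), but its arrays overlapped between the groups, and the call was lost without untreated replicate 1 or 3 or doxorubicin replicate 2 or 3. Of the 3 probe sets of HNRNPA3, 2 were called lower. One of the others gave -0.57 (limma adjusted p = 0.00011) without overlap, and the last gave -0.17 (limma adjusted p = 0.2). HNRNPAB rose by 0.27 (limma adjusted p = 0.0066), a call lost under centring and against the DMSO arrays. HNRNPA1, the classic antagonist of SR proteins at splice sites, gave -0.17 with a 95% interval from -0.35 to 0.01 (limma adjusted p = 0.099).

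In the C, K, L and M group 4 of 5 genes fell. HNRNPC, which binds uridine tracts in nascent transcripts, fell by 0.68 (SE 0.08, limma adjusted p = 1.2e-06), and 5 of its 6 probe sets fell, with changes from -1.24 to -0.68. The sixth rose by 0.39 with doxorubicin and by 0.82 with nutlin-3. HNRNPL, which binds CA repeats, read 1961, 2270 and 2214 with doxorubicin, against 3752, 4020 and 4630 in untreated cells, a change of -0.94 (SE 0.11, limma adjusted p = 2.5e-06) with no overlap. HNRNPK, a poly-C binding protein and cofactor of p53, fell by 0.35, and HNRNPM fell by 0.26, with 2 of 6 probe sets called lower and a range from -0.42 to 0.52. Set against the DMSO arrays instead, the doxorubicin change was -0.17 (adjusted p = 0.2) for HNRNPL and -0.01 (adjusted p = 0.93) for HNRNPK, neither of them called. The other probe set of HNRNPK averaged 8888 ± 177 with doxorubicin, below both untreated cells at 11384 ± 466 and DMSO at 11159 ± 642 (SD, n = 3 each).

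The F and H group, which binds G tracts, and the R, U and UL group gave 6 falls among 7 genes. HNRNPH1 fell by 0.49, HNRNPF by 0.39 and HNRNPH3 by 0.31, the last with arrays that overlapped and a call lost without untreated replicate 3 or doxorubicin replicate 1 or 2. HNRNPR, an mRNA-binding protein, read 9563, 9191 and 10300 with doxorubicin, against 16360, 16971 and 15953 in untreated cells, with no overlap and a change of -0.76 (SE 0.07, limma adjusted p = 9.3e-08). All 3 probe sets of HNRNPR fell, with changes from -1.73 to -0.71. HNRNPUL1 fell by 0.60 and HNRNPUL2 by 0.50, while HNRNPU, a nuclear matrix and chromatin-associated protein, gave -0.11 with a 95% interval from -0.26 to 0.03. Of the 4 probe sets of HNRNPU, 2 fell.

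**Figure D2:**
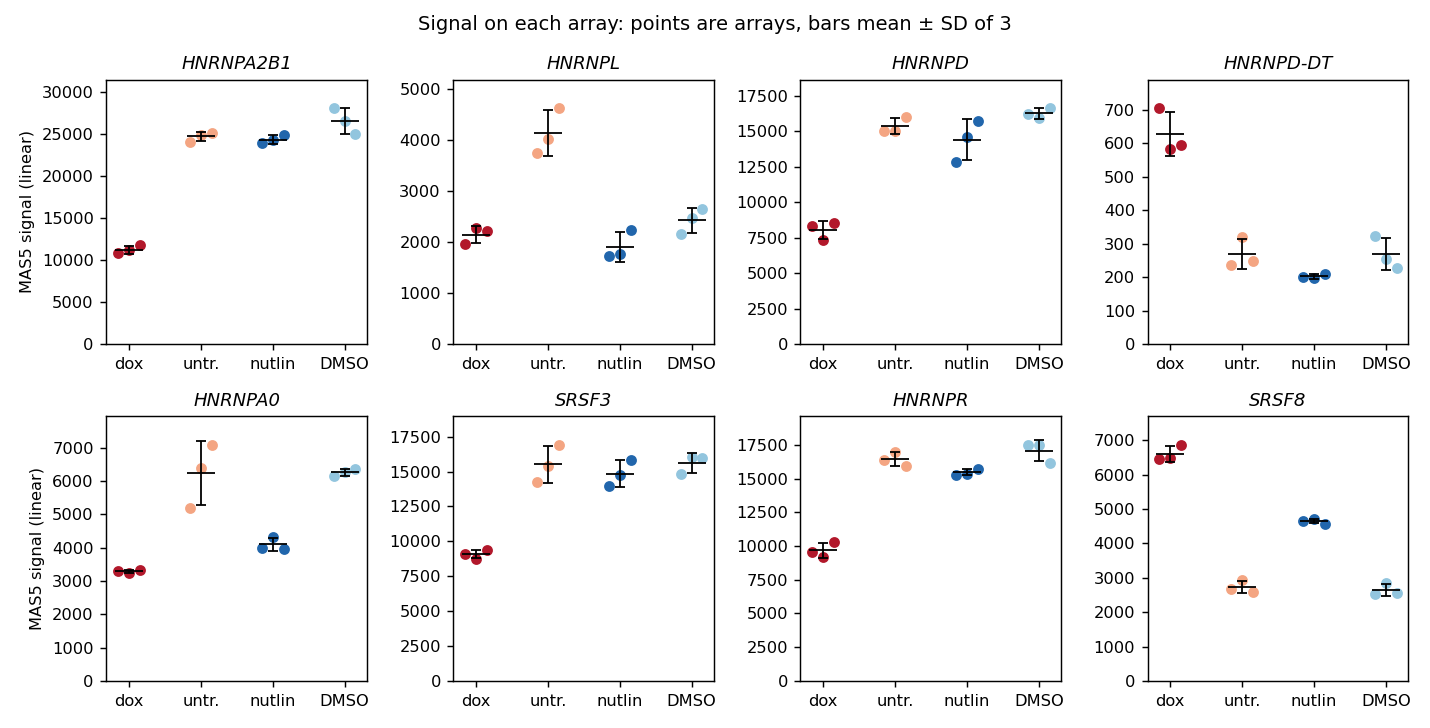
MAS5 signal (y axis, linear, from 0) of 8 members on each array of the doxorubicin, untreated, nutlin-3 and DMSO groups; points are arrays and bars mean ± SD of 3 arrays. The doxorubicin arrays lie below all untreated arrays for HNRNPA2B1, HNRNPL, HNRNPD, HNRNPA0, SRSF3 and HNRNPR and above them for HNRNPD-DT and SRSF8.

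Of the 6 canonical SR protein genes tested, 5 fell after doxorubicin. SRSF3, the smallest SR protein, which also acts in mRNA export and polyadenylation, read 9105, 8756 and 9349 with doxorubicin, against 14253, 15362 and 16915 in untreated cells. The groups did not overlap and the change was -0.77 (SE 0.08, limma adjusted p = 3.4e-07), with 3 of 5 probe sets called lower. SRSF1, among the first SR proteins described, fell by 0.74 (SE 0.08, limma adjusted p = 7.9e-07), and 4 of its 8 probe sets were called lower. SRSF6 fell by 0.53, SRSF7 by 0.29 and SRSF4 by 0.23. The other 3 probe sets of SRSF7 were not called, and the highest stood at 0.30, while the call of SRSF4 was lost without untreated replicate 1 or doxorubicin replicate 1. SRSF5 rose by 0.21 (limma adjusted p = 0.031), a call lost under centring and without untreated replicate 2 or 3 or doxorubicin replicate 2. It was also lost against the DMSO arrays, with the mean of all probe sets and without an intensity trend in the fit.

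Among the other SRSF-named genes, SRSF10, a splicing repressor once dephosphorylated, fell by 0.43, and SRSF11 gave -0.13 with overlapping arrays. Of the 4 probe sets of SRSF11, 1 was called lower, and the changes ran from -0.92 to 0.06. SRSF11 was called lower with the mean of all probe sets, with probe sets other than _x_at and _s_at, and against the DMSO arrays. SRSF8, a retrocopy related to SRSF2, went the other way. It read 6469, 6487 and 6873 with doxorubicin, against 2670, 2924 and 2602 in untreated cells, and 4655, 4702 and 4581 with nutlin-3, against 2539, 2858 and 2564 in DMSO. Neither agent's arrays overlapped with those of its control, and SRSF8 rose by 1.27 with doxorubicin (SE 0.08, limma adjusted p = 6.2e-10) and by 0.81 with nutlin-3 (SE 0.08, limma adjusted p = 5.4e-07). All 4 of its probe sets rose with both agents, by 0.96 to 1.27 with doxorubicin and by 0.81 to 1.07 with nutlin-3. ENDOD1, the next gene along the chromosome that was tested, picked out after its value was seen, rose by 1.28 with doxorubicin (limma adjusted p = 5.2e-08) and by 0.63 with nutlin-3 (limma adjusted p = 0.00042).

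HNRNPD-DT read 705, 584 and 596 with doxorubicin, against 237, 321 and 248 in untreated cells. The doxorubicin arrays lay above all untreated arrays, and the change was 1.18 (SE 0.15, limma adjusted p = 4.4e-06) on its single probe set. It thus rose where HNRNPD fell. By RefSeq the genes lie on opposite strands with 577 bases between their starts.

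The 250 bases before the start are printed for both members that rose at least 2-fold, for HNRNPD as the neighbour of one of them, and for SRSF3 as a member that fell. They come from RefSeq on GRCh38.p14, read 5′ to 3′ on the gene's strand, and capitals mark CCAAT, the box bound by NF-Y, or its complement ATTGG.
SRSF8, chr11:95066627-95066876, plus strand: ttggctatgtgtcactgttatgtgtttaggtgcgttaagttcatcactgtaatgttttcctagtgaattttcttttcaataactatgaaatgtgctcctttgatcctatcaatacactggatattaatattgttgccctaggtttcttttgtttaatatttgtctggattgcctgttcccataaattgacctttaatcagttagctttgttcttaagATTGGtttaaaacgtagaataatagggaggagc
HNRNPD-DT, chr4:82374318-82374567, plus strand: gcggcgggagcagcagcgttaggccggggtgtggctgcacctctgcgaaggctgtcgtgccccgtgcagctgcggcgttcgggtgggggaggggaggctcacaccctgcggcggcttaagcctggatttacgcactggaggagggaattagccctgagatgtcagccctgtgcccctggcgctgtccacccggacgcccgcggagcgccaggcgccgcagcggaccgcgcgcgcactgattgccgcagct
HNRNPD, chr4:82373992-82374241, minus strand: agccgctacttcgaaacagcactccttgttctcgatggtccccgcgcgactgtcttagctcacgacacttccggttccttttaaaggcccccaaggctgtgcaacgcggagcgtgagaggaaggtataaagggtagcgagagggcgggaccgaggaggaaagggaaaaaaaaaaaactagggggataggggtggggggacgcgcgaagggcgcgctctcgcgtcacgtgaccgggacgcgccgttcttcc
SRSF3, chr6:36594112-36594361, plus strand: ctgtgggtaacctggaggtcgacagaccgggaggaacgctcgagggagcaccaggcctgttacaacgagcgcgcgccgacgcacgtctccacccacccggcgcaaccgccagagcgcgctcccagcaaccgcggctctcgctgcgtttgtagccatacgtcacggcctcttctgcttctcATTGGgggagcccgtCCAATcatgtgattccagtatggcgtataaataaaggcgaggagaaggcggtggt
The SRSF8 window has 1 match, the SRSF3 window has 2, and the HNRNPD and HNRNPD-DT windows have none. Promoter windows were matched for 28 of the 29 members tested. On either strand, CCAAT was in a window of 17 of 28 members (60.7%), against 37.0% of 27305 genes, and the members with it included SRSF8, which rose, and SRSF3, which fell. The p53 half-site was in windows of HNRNPC and SRSF4 alone (7.14% of members, against 6.8% of genes). TTTGAA was in 3 members (10.7%, against 16.1% of genes), TTTCCCGC in 3 (10.7%, against 1.7%), and TTTGGCGC and TGACGTCA in none, against 0.681% and 2.03% of genes. The SRSF8 window had a GC content of 33.6%, the lowest of the members' windows, whose median was 65.0%, against 58.0% for all windows.

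Against DMSO, 6 of the 29 genes fell with nutlin-3 and 1 rose, while of all genes tested 13.9% fell and 12.5% rose, 26.4% in all, and the median change was -0.15, against 0.01 over all genes. The genes that fell were HNRNPA0, HNRNPUL1, SRSF10, SRSF4, HNRNPL and SRSF7, and SRSF8 was the gene that rose. None changed at least 2-fold, while 1.95% of all genes fell and 2.6% rose that far. The 3 nutlin-3 arrays lay below the 3 DMSO arrays for 16 members, against 21.9% of all genes, so more members shifted downwards without overlap than passed the test. With quantile normalization 14 members fell and 1 rose, while 13.3% of all genes fell and 12.2% rose.

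HNRNPA0 read 3999, 4319 and 3963 with nutlin-3, against 6140, 6263 and 6350 in DMSO, a change of -0.61 (SE 0.09, limma adjusted p = 1e-04), and all 3 of its probe sets fell. HNRNPUL1, a relative of HNRNPU that takes part in the DNA damage response, read 3180, 4115 and 4317 with nutlin-3, against 5390, 5754 and 5155 in DMSO, a change of -0.50 (SE 0.15, limma adjusted p = 0.02). Neither gene's groups overlapped. SRSF10 read 3200, 2634 and 2747 with nutlin-3, against 3876, 3738 and 3775 in DMSO, a change of -0.41 (SE 0.09, limma adjusted p = 0.0029). SRSF4 read 2969, 2956 and 2812 with nutlin-3, against 3672, 3670 and 3906 in DMSO, a change of -0.36 (SE 0.08, limma adjusted p = 0.0024). Both SR genes were lower on every nutlin-3 array. Of the 4 probe sets of SRSF4, however, 1 was called lower, and the changes ran from -0.36 to -0.06. The SRSF4 call was lost with the mean of all probe sets and against untreated cells.

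SRSF7, an SR protein with a zinc knuckle, read 10518, 10120 and 10450 with nutlin-3, against 12492, 13159 and 12903 in DMSO, a change of -0.31 (SE 0.07, limma adjusted p = 0.0042) with no overlap. Of the 4 probe sets of SRSF7, 2 were called lower with nutlin-3, and the changes ran from -0.37 to 0.70. The SRSF7 call was lost with the mean of all probe sets. HNRNPL read 1725, 1761 and 2245 with nutlin-3, against 2165, 2472 and 2656 in DMSO; these arrays overlapped, and the change was -0.35 (SE 0.11, limma adjusted p = 0.031). HNRNPL's call was lost without DMSO replicate 2 or 3 or nutlin-3 replicate 1 or 2, and that of HNRNPUL1 without DMSO replicate 2 or nutlin-3 replicate 1. These 6 genes also fell with doxorubicin, so 6 members were lower with both agents, against 7.41% of all genes, and SRSF8 was higher with both, against 8.25%. The ACTB 3' to 5' ratio was 1.31 ± 0.026 with nutlin-3 and 1.28 ± 0.0281 in DMSO (SD, n = 3 each, exact permutation p = 0.2).

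The responses to the agents differed for 15 members when the doxorubicin change minus the nutlin-3 change was tested. The difference was negative for 12 members, against 17.7% of all genes, and positive for 3, against 21.8%. This split rests on the choice of probe set: with probe sets other than _x_at and _s_at it was negative for 6 members, 5 of them among the 12, against 15.7% of all genes, and positive for 5, against 20.6%. Among the members it was largest for HNRNPD-DT, at 1.55 (SE 0.21, limma adjusted p = 2.9e-05): this transcript read 201, 197 and 211 with nutlin-3, against 322, 254 and 229 in DMSO. HNRNPA2B1 followed at -1.01 (SE 0.10, limma adjusted p = 7e-07), with 23894, 24288 and 24857 with nutlin-3, against 28092, 26599 and 24966 in DMSO. HNRNPA2B1 thus fell with doxorubicin on this probe set and gave -0.12 (adjusted p = 0.22) with nutlin-3. On another HNRNPA2B1 probe set the difference was 0.44 (limma adjusted p = 0.027).

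HNRNPD differed by -0.75 and read 12866, 14568 and 15746 with nutlin-3, against 16212, 15914 and 16635 in DMSO. SRSF3 differed by -0.70 and read 13983, 14736 and 15853 with nutlin-3, against 14796, 16056 and 15948 in DMSO, where the groups overlapped. HNRNPR differed by -0.62 and read 15298, 15369 and 15702 with nutlin-3, against 17504, 17503 and 16182 in DMSO. For these 3 genes the nutlin-3 changes on the brightest probe set lay between -0.18 and -0.07 and none was called. On other probe sets nutlin-3 did lower 3 of 7 for HNRNPD, the furthest at -0.71, and 1 of 3 for HNRNPR (-0.45, limma adjusted p = 0.024), and both genes were called lower with quantile normalization and with the mean of all probe sets. HNRNPDL differed by -0.60 (SE 0.13, limma adjusted p = 0.0011) and read 7453, 6477 and 6631 with doxorubicin, against 10840, 10319 and 10692 in untreated cells, and 14956, 14416 and 12232 with nutlin-3, against 15420, 13221 and 13716 in DMSO. For HNRNPA0, SRSF10, SRSF7, SRSF4 and HNRNPUL1 the difference was not called on the brightest probe set. Its 95% interval ran from -0.58 to -0.01 for HNRNPA0 and from -0.55 to 0.35 for HNRNPUL1. It was called positive on 2 of 4 probe sets of SRSF7 (range -0.72 to 0.67) and 1 of 5 of SRSF10 (range -0.14 to 0.79). SRSF7 was also called with probe sets other than _x_at and _s_at, at 0.67 (limma adjusted p = 0.007). With probe sets other than _x_at and _s_at, the differences of HNRNPR, SRSF3, SRSF1, HNRNPDL, HNRNPH1 and SRSF8 were not called and that of HNRNPD was 0.20. For HNRNPL the treated groups were close, at 2148 ± 165 with doxorubicin and 1910 ± 290 with nutlin-3, while the controls stood apart, at 4134 ± 450 in untreated cells and 2431 ± 248 in DMSO (SD, n = 3 each). HNRNPK was alike on its brightest probe set, at 16416 ± 600 with doxorubicin and 16824 ± 694 with nutlin-3, against 20999 ± 1006 in untreated cells and 16501 ± 479 in DMSO (SD, n = 3 each). Over all genes 55.3% of called differences were positive, and 39.6% after centring.

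DMSO itself, set against untreated cells, gave 4 members higher and 2 lower, while 8.14% of all genes tested were higher and 5.98% lower. HNRNPL read 2165, 2472 and 2656 in DMSO, against 3752, 4020 and 4630 in untreated cells, a change of -0.76 (SE 0.11, limma adjusted p = 0.00038). HNRNPK read 16876, 16664 and 15961 in DMSO, against 21932, 19932 and 21132 in untreated cells, a change of -0.35 (SE 0.07, limma adjusted p = 0.0033). Neither gene's groups overlapped. Both probe sets of HNRNPL were lower in DMSO, but the other probe set of HNRNPK averaged 11159 ± 642 in DMSO and 11384 ± 466 in untreated cells (SD, n = 3 each), a change of -0.03 (limma adjusted p = 0.84), and the HNRNPK call was lost under centring and with the mean of all probe sets. HNRNPH3 was higher by 0.46, HNRNPDL by 0.41, SRSF4 by 0.27 and HNRNPF by 0.25 in DMSO. The call of HNRNPDL was lost with probe sets other than _x_at and _s_at, at 0.12 (adjusted p = 0.58). Other probe sets of members not called here were also higher in DMSO, among them those of HNRNPA1 by 1.14 and 0.69 and of HNRNPA2B1 by 0.68 and 0.52. In the same members, a probe set of SRSF6 at -0.92 and another of HNRNPA0 at -0.37 were called lower in DMSO. The HNRNPA2B1 probe set that rose with doxorubicin averaged 4575 ± 254 with doxorubicin, against 3736 ± 228 in untreated cells and 6011 ± 531 in DMSO (SD, n = 3 each). The call of HNRNPF was lost without any one of the DMSO, untreated or nutlin-3 arrays or doxorubicin replicate 1, and that of SRSF4 without any one DMSO array or untreated replicate 2 or 3. Over all genes 57.7% of the calls were higher in DMSO, 80.3% after centring and 46.4% with the mean of all probe sets.

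The probe sets of one gene can read different transcript ends or isoforms, and those ending in _x_at or _s_at can bind several transcripts. Over the 106 probe sets of members that passed the filter, 60 were lower and 11 higher with doxorubicin, against 23.6% and 23.4% of all probe sets tested. With nutlin-3, 23 were lower and 5 higher, against 9.49% and 8.33%. For the difference, 33 were lower and 9 higher, against 14.8% and 15.3%, and for DMSO 5 were lower and 17 higher, against 7.84% and 5.61%. With doxorubicin, opposite calls among a gene's probe sets were seen for HNRNPA2B1 and HNRNPC and no other member. When probe sets other than _x_at and _s_at were taken where possible, 18 members fell and 5 rose with doxorubicin, against 24.1% and 28.8% of all genes, and HNRNPD at -0.03 (adjusted p = 0.83) and SRSF3 at -0.31 (adjusted p = 0.24) were not called.

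**Figure D3:**
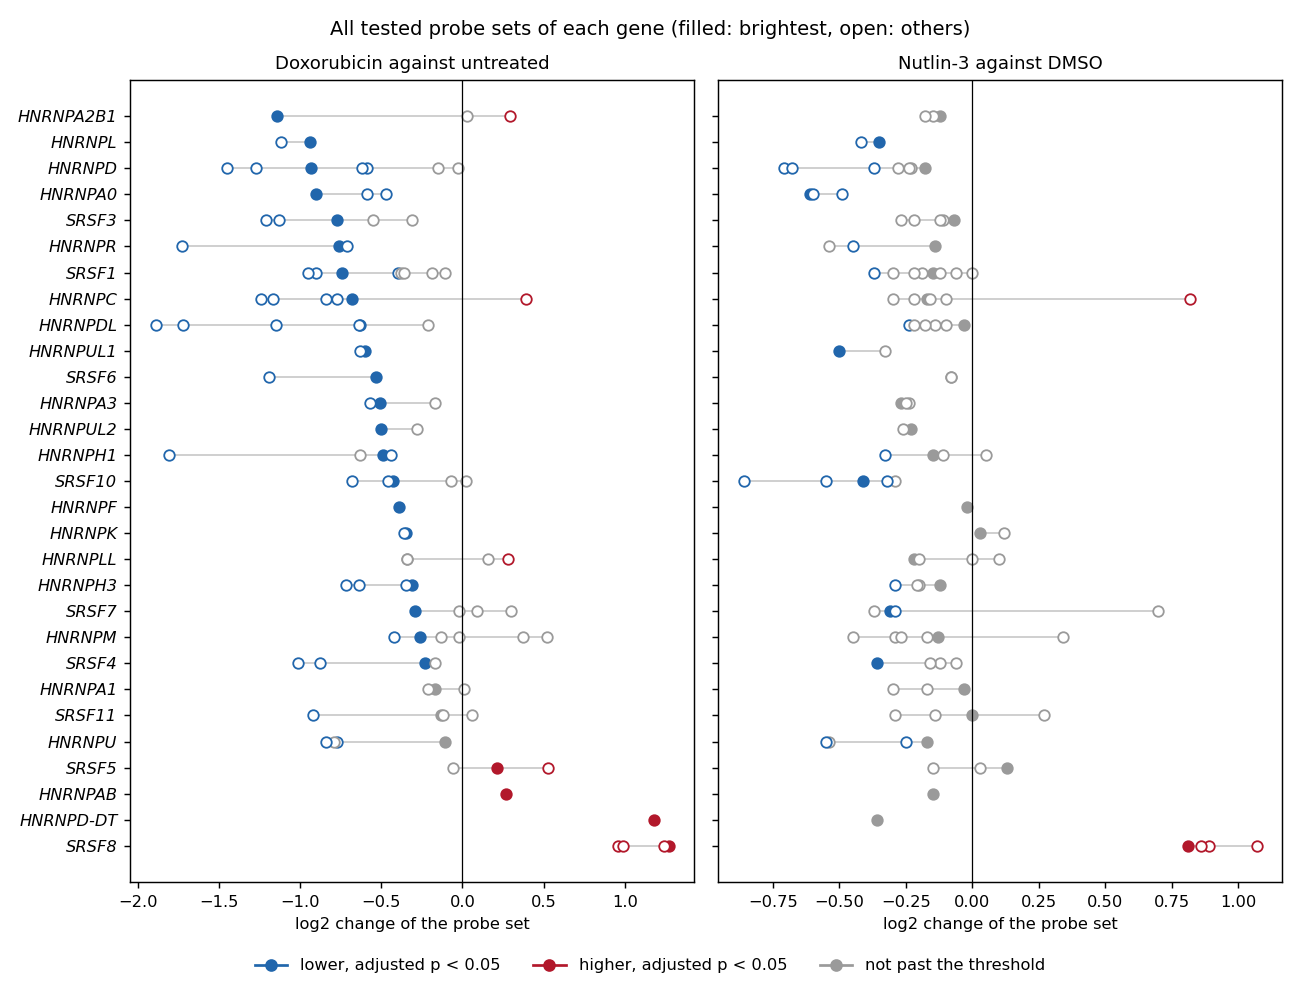
Log2 change (x axis) of each tested probe set of the 29 genes (y axis) with doxorubicin against untreated cells and with nutlin-3 against DMSO; filled circles are the brightest probe set of a gene, open circles the others, and colours the limma call over all probe sets. The 4 probe sets of SRSF8 lie above 0 in both panels, while those of HNRNPA2B1 run from -1.14 to 0.29 with doxorubicin.

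Genes that act with these families were counted by list, beside 25.6% lower and 30.1% higher over all genes with doxorubicin, and 13.9% lower and 12.5% higher with nutlin-3. Of 10 genes for SR protein kinases, a phosphatase and the importer, 3 rose (30%) and 2 fell (20%) with doxorubicin, shares near or below those of all genes: CLK1, a kinase of SR proteins, rose by 1.00 (SE 0.11, limma adjusted p = 6.9e-07), CLK3 by 0.65 and CLK4 by 0.40, while TNPO3 fell by 0.87 and SRPK1 by 0.27. With nutlin-3, SRPK3 rose by 1.66 and SRPK1, DYRK1A and TNPO3 fell. Of 38 other splicing regulators, 24 fell (63.2%) and 4 rose (10.5%) with doxorubicin, with a median of -0.47. MATR3, a nuclear matrix protein, fell by 2.41, RBFOX2, a splicing factor that binds GCAUG, by 1.44, and MBNL2, of the muscleblind family, fell by 1.40, while TIAL1 rose by 0.37. With nutlin-3, 4 of the 38 fell (10.5%), among them MBNL3 by 0.78 and PTBP1, a repressor that binds pyrimidine tracts, by 0.35, and 2 rose, among them KHDRBS3 by 0.59.

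Of 49 genes of the spliceosome core, 19 fell (38.8%) and 9 rose (18.4%) with doxorubicin, with a median of -0.10. SNRNP40, a U5 component, fell by 1.03, SF1, which binds the branch point, by 0.96 and SNRPA, a U1 protein, by 0.87, while SLU7, a second-step factor, rose by 1.07. With nutlin-3, 7 of the 49 fell (14.3%, near the share of all genes) and 3 rose (6.12%). In nonsense-mediated decay, 3 of 9 fell (33.3%) and 2 rose (22.2%) with doxorubicin. SMG9 fell by 1.02, MAGOHB by 0.84 and UPF2 by 0.61, while SMG8 rose by 1.26 and EIF4A3 by 0.86. With nutlin-3, 2 of the 9 fell (22.2%), UPF2 by 0.28 and EIF4A3 by 0.31, so EIF4A3 went in opposite directions with the agents. Of 16 genes for 3' end processing, 3 fell (18.8%) and 2 rose (12.5%) with doxorubicin, both below the shares of all genes, and CPSF4 and CLP1 rose with both agents, by 1.09 and 0.94 with doxorubicin and by 0.59 and 0.67 with nutlin-3.

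**Figure D4:**
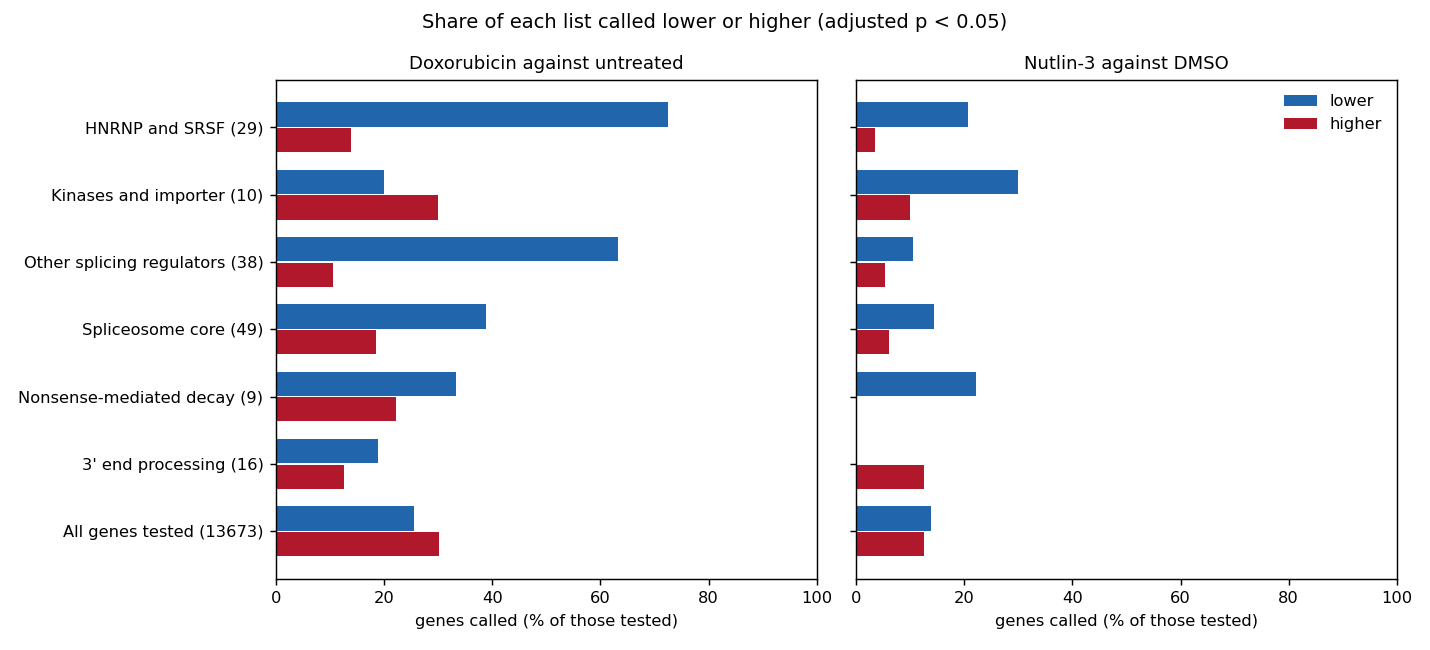
Share of genes called lower (blue) or higher (red) by limma in each list (y axis, with the number tested in brackets) as a percent of those tested (x axis, from 0), for doxorubicin against untreated cells and nutlin-3 against DMSO. With doxorubicin 21 of 29 HNRNP and SRSF genes and 24 of 38 other splicing regulators were lower, against 25.6% of all genes tested.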

How the data were processed

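RNA of U2OS cells had been hybridised to Affymetrix U133 Plus 2.0 arrays, 3 in each of 4 groups, with group and replicate taken from the sample titles. The authors deposited a table of intensity values on a linear scale, made with MAS5 per the submitters' processing notes; its version is not given in the sources used here. The number of arrays limits the precision. The authors' scaling was kept.

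Of 54675 probe sets, 62 controls were left out, and those whose mean log2(intensity + 16) lay under the 40th percentile (a signal of 49.3) were not tested. The platform annotation gave 1 symbol to 41097 probe sets, several to 1801 and none to the other 11777, which it leaves out. Current symbols came from the RefSeq gene table of GRCh38.p14, where 13658 of the 13673 genes tested were found. Each gene was read from its brightest single-gene probe set. limma 3.58.1 in R 4.3.3 (lmFit, eBayes with an intensity trend) fitted 4 group means to all 12 arrays, without a block, with Benjamini-Hochberg adjustment over all genes. Other probe sets were tested in a like fit over 32768 probe sets. The fit was tested on simulated data.

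Per-array values are given for up to 8 called members with the largest change per agent and up to 6 with the largest difference between agents. Members called with both agents, with opposite probe sets or between controls were also named, and up to 3 rises and 3 falls per other list and agent could be. Deviations of same-numbered arrays from their group means correlated weakly, between -0.09 and 0.17, so numbers were not used as pairs. Alternatives were other pseudocounts, scalings, filters, probe set rules, controls and left-out arrays. The members and lists were chosen with earlier results of these data known.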

Additional observations from a re-analysis of the deposited data

Results flagged for a closer look

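For 15 members the response to doxorubicin, measured against untreated cells, differed from the response to nutlin-3, measured against DMSO, by limma's test of the difference. The difference (log2, doxorubicin response minus nutlin-3 response) was -1.01 for HNRNPA2B1, -0.75 for HNRNPD, -0.70 for SRSF3, -0.62 for HNRNPR and -0.60 for HNRNPDL. It was -0.59 for SRSF1 (adjusted p = 0.00066), -0.59 for HNRNPL (adjusted p = 0.0085) and -0.51 for HNRNPC (adjusted p = 0.0014). Smaller negative differences were -0.46 for SRSF6, -0.38 for HNRNPK, -0.37 for HNRNPF and -0.34 for HNRNPH1, with adjusted p of 0.0076, 0.0054, 0.015 and 0.014 in that order. The positive differences were 1.55 for HNRNPD-DT, 0.46 for SRSF8 (adjusted p = 0.0028) and 0.42 for HNRNPAB (adjusted p = 0.0058). For HNRNPL, and for HNRNPK on its brightest probe set, the treated groups were close and the controls differed: HNRNPL averaged 2148 with doxorubicin and 1910 with nutlin-3, against 4134 in untreated cells and 2431 in DMSO, and HNRNPK 16416 with doxorubicin and 16824 with nutlin-3, against 20999 in untreated cells and 16501 in DMSO. With probe sets other than _x_at and _s_at the difference was called negative for 6 members and positive for 5, against 15.7% and 20.6% of all genes. The SRSF8 difference was seen on the brightest of its 4 probe sets and was not called on the others. The ACTB 3' to 5' ratio was 3.12 ± 0.577 on doxorubicin arrays and 1.53 ± 0.0754 on untreated arrays (SD, n = 3 each), and its part in these differences was not tested.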

How the results depend on the processing

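The call and direction of 10 of the 21 members lower with doxorubicin held in every alternative run, as did those of HNRNPD-DT and SRSF8. The 10 were HNRNPA0, HNRNPC, HNRNPDL, HNRNPF, HNRNPH1, HNRNPR, HNRNPUL2, SRSF1, SRSF10 and SRSF6. With nutlin-3 call and direction held for HNRNPA0, SRSF10 and SRSF8. HNRNPF and HNRNPD-DT have 1 tested probe set each, so other probe set rules could not change their values. For HNRNPA0 and HNRNPUL2 the brightest probe set ends in neither _x_at nor _s_at, so the rule avoiding those kept it. With probe sets other than _x_at and _s_at, direction reversed with doxorubicin for HNRNPA2B1 (0.29), HNRNPM (0.52) and SRSF7 (0.30), and for the difference for HNRNPA2B1 (0.44), HNRNPD (0.20) and HNRNPM (0.82); with nutlin-3 CELF2 reversed to -0.15 (adjusted p = 0.8), and MBNL1 stood at 0.00 with no direction. With the mean of all probe sets, HNRNPM (0.01) and SRSF7 (0.02) lay near 0 with doxorubicin and were not called. HNRNPA0 (-0.25) and SRSF4 (-0.16) then reversed between DMSO and untreated cells. There 10 members were called, 3 lower and 7 higher, against 6.94% and 6.0% of all genes. Against untreated cells, nutlin-3 called 14 members and 5432 genes, with HNRNPDL at 0.38, HNRNPF at 0.22, HNRNPH3 at 0.34, HNRNPK at -0.32, CELF2 at -0.10 and DDX23 at 0.00; against DMSO, RBM5 was at -0.06 with doxorubicin. Quantile normalization called 15 members with nutlin-3, 14 lower and 1 higher, against 13.3% and 12.2% of all genes. The cause of these changes was not tested. Leaving out 1 array called 22 to 25 members with doxorubicin, 5 to 7 with nutlin-3, 15 to 16 for the difference and 4 to 6 for DMSO, and 6979 to 7644, 2839 to 3753, 4807 to 5331 and 1100 to 2091 genes overall; the lowest DMSO count came without DMSO replicate 3, and it was 1185 without DMSO replicate 2 and 1236 without untreated replicate 1. With the replicate number as a block, 25, 7, 15 and 7 members were called in the same order. The shares of all genes lower and higher were then 26.5% and 30.7% with doxorubicin and 14.8% and 13.7% with nutlin-3. They were 18.8% and 22.8% for the difference and 6.87% and 9.8% for DMSO. Deviations of same-numbered arrays correlated between -0.09 and 0.17, and those of other pairs between -0.18 and 0.15. So few values cannot tell if same-numbered arrays have more than the number in common. Dim probe sets, such as that of SRSF12, cannot show a change here.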

Other observations

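Members without a probe set of their own were read on probe sets shared with another gene, so their values are not assigned to either gene. The 3 probe sets annotated to SRSF2 and MIR636 fell, with changes from -1.26 to -0.91 with doxorubicin and from -0.42 to -0.31 with nutlin-3, while all 4 probe sets of SRSF8, the retrocopy related to SRSF2, rose with both agents. The probe sets shared by SRSF9 and GATC fell by 0.66 and 0.89 with doxorubicin. The probe set shared by HNRNPH2 and its readthrough gene with RPL36A fell by 0.79 with doxorubicin. HNRNPA1 gave no call with doxorubicin on its own probe sets, yet a probe set shared with HNRNPA1P10 fell by 0.83 (SE 0.07, limma adjusted p = 1.3e-07) and one shared by 4 symbols of that family fell by 0.97. The 3 probe sets shared by HNRNPA3 and the pseudogene HNRNPA3P1 also fell, with changes from -1.04 to -0.60 with doxorubicin.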
